A study of Mus musculus with 12 samples.

Results

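Clone 10 is a line of mouse embryonic stem cells in which sphingosine kinase 1 (Sphk1) can be deleted by Cre recombinase, and its GFP-positive cells were compared with its GFP-negative cells across all genes. The clone gave 6 of the 12 libraries of the series, 3 GFP-negative and 3 GFP-positive, taken by their labels. The other 6 libraries came from clone 4, a second line handled the same way.

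Both lines were derived from mice labelled Sphk1fl/fl Sphk2-/-, grown in KO DMEM with serum and leukemia inhibitory factor, given (Z)-4-hydroxytamoxifen at 6 uM over 48 hours, and sorted on Cre-GFP. GFP-negative cells are labelled GFP- Sphk1fl/fl Sphk2-/- and GFP-positive cells GFP+ Sphk1-/- Sphk2-/-, so by the labels all 12 libraries share the deletion of Sphk2 and the tamoxifen. The gate therefore carries both the labelled loss of Sphk1 and the presence of Cre-GFP, and the labels give neither the promoter nor the form of the Cre. In all 3 pairs of equal replicate number the passage given for GFP-positive cells is 1 above that for GFP-negative cells (12, 18 and 20 against 11, 17 and 19). These numbers climb from sample to sample over both clones, so they may not be true passages, and if they are, passage and gate cannot be told apart. Nothing in the labels says that the replicates were separate cultures or sorts. The p-values given here thus measure the spread between these libraries, which may be technical.

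Sphingosine kinases add a phosphate to sphingosine and so make sphingosine 1-phosphate, a lipid that signals through its own cell surface receptors and whose breakdown by a lyase is the exit from the sphingolipid pathway. Embryonic stem cell cultures also hold a rare, transient state that resembles the embryo at the 2-cell stage. Cells in that state switch on Zscan4, a cluster of zinc finger genes tied to telomere upkeep, together with Usp17l, Tdpoz, Tcstv and Pramef families that stay silent in most cells of the culture.

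All 5 tested Zscan4 genes rose in GFP-positive cells, and the promoters of 3 of them, chosen because their windows hold both motifs marked here, are shown first, as 300-base windows from 250 bases before to 50 bases after the start in RefSeq, build GRCm38.p6 (the mm10 build). They lie on chromosome 7, Zscan4b at chr7:10905001-10905300 on the minus strand, Zscan4c at chr7:11005495-11005794 on the plus strand and Zscan4f at chr7:11397665-11397964 on the plus strand. Capitals mark a match to the palindrome of an estrogen response element (GGTCA and TGACC with any 3 bases between them) and a match to TGATTNAAT, the core of the element bound by the homeodomain factor Dux, on either strand.
Zscan4b: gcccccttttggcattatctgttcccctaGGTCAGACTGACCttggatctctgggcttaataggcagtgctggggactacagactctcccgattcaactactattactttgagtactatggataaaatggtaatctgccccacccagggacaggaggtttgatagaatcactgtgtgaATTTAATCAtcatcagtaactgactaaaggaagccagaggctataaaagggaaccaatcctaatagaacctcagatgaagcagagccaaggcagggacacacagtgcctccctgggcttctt
Zscan4c: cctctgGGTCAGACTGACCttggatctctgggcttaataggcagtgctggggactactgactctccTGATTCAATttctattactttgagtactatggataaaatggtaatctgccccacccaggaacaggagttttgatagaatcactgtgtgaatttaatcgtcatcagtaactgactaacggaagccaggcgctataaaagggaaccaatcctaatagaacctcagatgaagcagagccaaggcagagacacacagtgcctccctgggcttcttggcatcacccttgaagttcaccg
Zscan4f: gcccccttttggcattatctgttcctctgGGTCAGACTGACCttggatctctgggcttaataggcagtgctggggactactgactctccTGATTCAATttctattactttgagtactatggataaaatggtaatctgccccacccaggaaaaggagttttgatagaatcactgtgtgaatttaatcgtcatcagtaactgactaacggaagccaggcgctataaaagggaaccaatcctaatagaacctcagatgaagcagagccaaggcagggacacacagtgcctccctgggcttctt

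The window of Zscan4d, which rose as well, held neither marked motif, and Zscan4e had no window. Compared position by position without alignment, the Zscan4b and Zscan4f windows held the same base at 287 of 300 positions. The Zscan4c window matched them at 70 and 71 of 300. The palindrome stood at bases 30 to 42 of the Zscan4b and Zscan4f windows, counted from the 5′ end, and at bases 7 to 19 of the Zscan4c window. With the windows offset in this way, the low values for Zscan4c do not show that its sequence differs. Over both strands the palindrome was found in the windows of 20 of 27025 RefSeq genes (0.074%). Of 11089 genes tested here 4 held it (0.0361%), 3 of which are the Zscan4 genes shown. TGATTNAAT was found in the windows of 11 of the 330 genes with a window that rose (3.33%), against 0.433% of the genes tested and 0.84% of all RefSeq genes, and in none of the 85 that fell. Besides Zscan4b, Zscan4c and Zscan4f these were AF067061, BB287469, Gm2046, Gm4027, Gm21319, Gm21761, Cd163 and Bdnf. All but Cd163 and Bdnf lie in the runs of neighbouring rises on chromosomes 7, 12 and 13 described below. Most such neighbours share a family, so the 11 windows are not independent. A TATA box (TATAAA) was found for 18.5% of the genes that rose, 10.6% of those that fell and 9.18% of those tested. The remaining motifs were CCAAT (47.6% of genes that rose and 42.8% of those tested), CACGTG (8.48% and 11.4%), TGACATCA (2.73% and 2.28%), TGATGNAAT (0.606% and 0.586%), the p53 element built of CATGNC, any 2 bases and GNCATG (0 and 0.0541%) and the longer Dux element, TGATTNAAT followed by CA, whose matches are also matches of the shorter one (0 and 0.009%). These matches are descriptions of the letters in the windows, not of binding.

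Reads were counted per gene, and levels are given as CPM (a gene's count scaled to the same total in every library), always in the order of replicates 1, 2 and 3. The GFP-negative libraries held 12968916, 32614087 and 20948701 counts and the GFP-positive libraries 19112398, 33215399 and 20285761. GFP-negative replicate 1 stood apart: 0.143% of its counts fell on mitochondrial genes (0.849% to 2.32% in the other 5), 7.39% on its top 10 genes (4.52% to 4.99%) and 2.09% on Lars2 (0.116% to 0.271%), and 15867 genes were detected (17078 to 17844). Without its pair 13 named calls were lost, with adjusted p of 0.053 to 0.0815: Rbm25, Hk2, Trh, L1td1, Maz, Lgals1, Mov10, Psmb10, Sox17, Krt8, Fos, Sptssb and Cdkn1c. Embryonic stem cell markers were high in every library, with Pou5f1, the core pluripotency factor gene, at 2941, 1607 and 1401 CPM in GFP-negative cells and 1488, 1480 and 1069 CPM in GFP-positive cells. The 12 markers summed to 12485, 8974 and 8528 CPM in GFP-negative cells and 7844, 8327 and 7037 CPM in GFP-positive cells. Their median log2 change within pairs was -0.39, with 1 estimate above 0. Of the 12, 1 fell (8.33%, against 0.731% of all tested genes) and 0 rose. With DESeq2 4 fell, and without clone 10 replicate 3 the number was 0. Of 11 blood and macrophage markers in the table only Cd68, Cd14 and Itgam passed the filter on low counts, and none was called.

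Sphk1 (ENSMUSG00000061878, chromosome 11, 116530925 to 116536674, mm10) was low in both gates. Its CPM was 0.694, 1.41 and 4.30 in GFP-negative cells and 0.889, 1.14 and 3.01 in GFP-positive cells, from 9, 46 and 90 and from 17, 38 and 61 reads. The gates overlapped, and the log2 change within pairs was -0.33 (SE 0.35, 95% confidence interval -1.13 to 0.47, adjusted p = 0.568 by edgeR's quasi-likelihood test). Gene totals can include reads from outside the deleted exons, which the labels do not name, so this neither bears out nor contradicts the labelled deletion. Sphk2 was detected at 3.16, 8.34 and 6.68 CPM and at 5.44, 8.13 and 5.92 CPM, although the labels give it as deleted in all cells (log2 change 0.05, SE 0.30, adjusted p = 0.931). Its sign turned without replicate 1 (-0.13).

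GFP-positive cells of clone 10 had many more genes raised than lowered, and the rises were the larger changes. Within pairs, 530 of 15179 tested genes rose (3.49%) and 111 fell (0.731%) at an adjusted p under 0.05, 4.22% in all. The genes that rose did so by a median of 3.62-fold, 425 of them by more than 2-fold and 239 by more than 4-fold, from a median level of 5.42 CPM to 20.9 CPM. The genes that fell did so by a median of 1.68-fold, 17 by more than 2-fold and 0 by more than 4-fold, from 44.4 CPM to 27.2 CPM. In a sorted population, a change in the share of cells that express a gene and a change per cell cannot be told apart.

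All 530 rises and all 111 falls had the same sign in the 3 pairs, and the 2 gates did not overlap in CPM for 433 and 50 of them, against 14.5% of all genes tested. Together the 530 genes took 1.12%, 1.25% and 1.41% of the counts of the GFP-negative libraries and 4.91%, 2.42% and 4.23% of the GFP-positive libraries. The GFP-positive library of replicate 2 thus held the weakest form of the shift. The log2 ratios of the pairs correlated across genes at 0.462 for replicates 1 and 2, 0.496 for 1 and 3 and 0.717 for 2 and 3, a description over genes that are not independent. Without pair 1, 485 genes rose (3.15%), 428 of them among the 530, and 172 fell (1.12%), 70 of them among the 111. The numbers rested most on replicate 3: without its pair 131 genes rose and 1 fell. Without clone 4 replicate 3, which enters through the shared estimate of the spread, 305 rose and 14 fell. Without clone 10 replicate 2, 428 rose and 64 fell, and without clone 4 replicates 1 and 2, 487 and 390 rose and 73 and 42 fell. Without the pair as a block edgeR called 0 genes, with 1131 at an unadjusted p under 0.05.

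**Figure D1:**
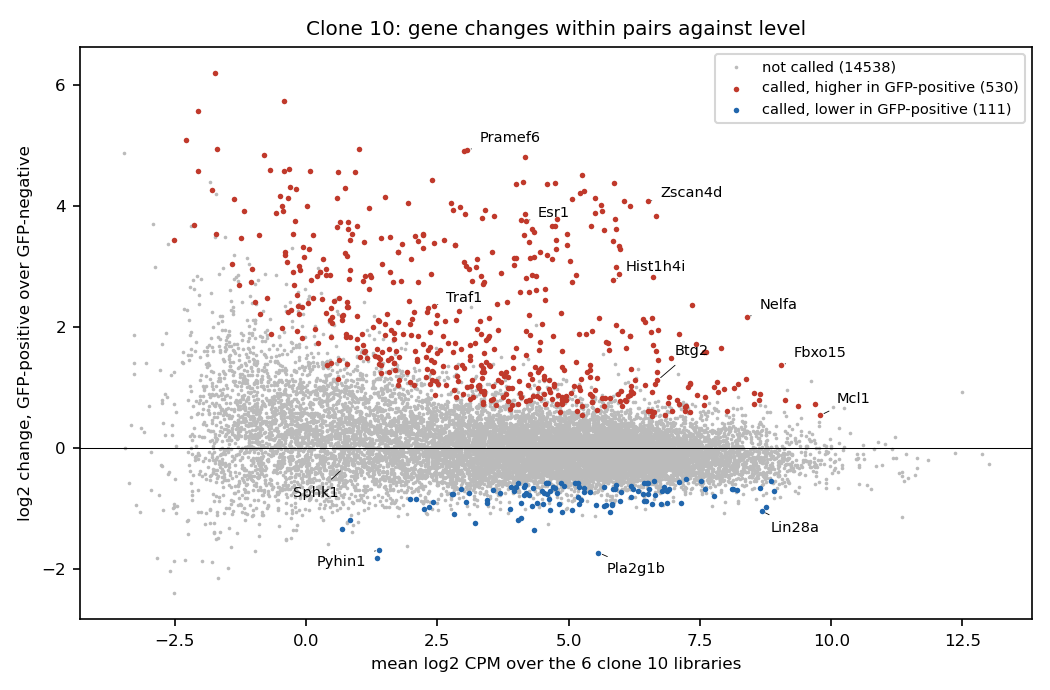
Log2 change of each of 15179 tested genes, GFP-positive over GFP-negative within pairs (vertical axis), against its mean log2 CPM over the 6 clone 10 libraries (horizontal axis), with 530 genes called higher in red, 111 called lower in blue and the others in grey. The red points reach much further from 0 than the blue points, and the largest rises lie at low and middle levels.

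Two-cell-like genes of multicopy families rose together, with 1 exception. Of 23 tested members 22 rose (95.7%) and 0 fell, where 3.49% and 0.731% of all tested genes did. The median log2 change of the list was 3.98 against -0.01 for all genes tested, with pair medians of 4.15, 2.96 and 4.85. The exception was Pramef12, at 41.6, 24.2 and 32.5 CPM against 40.5, 26.6 and 43.3 CPM. Leaving out each pair of either clone in turn gave 18 to 22 calls, and fitting clone 10 alone gave 20. The summed level of the list was 311, 173 and 175 CPM in GFP-negative cells and 5449, 1120 and 3626 CPM in GFP-positive cells. Reads of near-identical copies can be split among them, so the family totals are firmer than the value of any 1 member.

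Zscan4d, the most abundant Zscan4 copy in these libraries (ENSMUSG00000090714, chromosome 7, 11161374 to 11166182), stood at 29.8, 20.2 and 14.0 CPM in GFP-negative cells and 693, 186 and 412 CPM in GFP-positive cells, a log2 rise of 4.08 (SE 0.36, adjusted p = 0.00165). Zscan4c, whose promoter is shown above, went from 31.5, 12.3 and 11.6 CPM to 568, 113 and 373 CPM (4.00, SE 0.33, adjusted p = 0.00147). Every GFP-positive library was above every GFP-negative library for both, and replicate 2 was the lowest of the GFP-positive libraries. Zscan4b (4.81), Zscan4e (4.52) and Zscan4f (4.37) rose by similar log2 amounts. The deubiquitinase gene Usp17le went from 13.3, 12.7 and 9.79 CPM to 483, 101 and 394 CPM (4.38, SE 0.50), and Usp17ld from 2.54, 1.78 and 3.39 to 80.6, 14.2 and 62.8 CPM (3.93, SE 0.33).

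Pramef6, of a family of leucine-rich repeat proteins, had the largest log2 rise of the named genes, from 1.85, 1.13 and 1.24 CPM to 103, 15.1 and 63.0 CPM (4.93, SE 0.36, 95% confidence interval 4.11 to 5.74, 30.4-fold). Tdpoz3, of a family with TRAF and BTB domains, went from 3.16, 0.951 and 1.86 CPM to 78.6, 7.77 and 42.6 CPM (3.98, SE 0.29). BC147527, which lies near the Tcstv genes, went from 11.0, 2.24 and 3.10 CPM to 172, 19.7 and 74.5 CPM (3.77, SE 0.30). For these 3 genes, too, the groups did not overlap and replicate 2 was the lowest of the GFP-positive libraries. Pramef8 rose least of the members that were called (0.90), and its GFP-positive levels were 78.4, 40.6 and 60.8 CPM against 25.8, 29.6 and 30.4 CPM.

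Other genes of the two-cell-like state rose as well. Of 15 tested 12 rose (80%) and 0 fell, where 3.49% and 0.731% of all tested genes did. The list had a median of 2.83, and its rises numbered 7 without clone 10 replicate 3 and 12 on leaving out any other pair. Zfp352, a zinc finger gene of the 2-cell embryo, went from 9.33, 3.65 and 2.34 CPM to 195, 29.9 and 57.7 CPM (3.87, SE 0.34). Tmem92, which encodes a membrane protein, went from 31.2, 9.17 and 21.1 CPM to 398, 61.2 and 327 CPM (3.34, SE 0.28). Sp110, a nuclear body protein gene, went from 11.5, 5.92 and 10.6 CPM to 169, 40.1 and 148 CPM (3.36, SE 0.38). The gates did not overlap for any of these. The members that were not called were Obox6 (0.30), Zscan5b (0.05) and Gtsf1l (-0.82).

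Nelfa, a subunit of the negative elongation factor that pauses RNA polymerase II, showed the largest rise in mean CPM: 197, 128 and 127 CPM in GFP-negative cells and 1334, 303 and 895 CPM in GFP-positive cells (log2 2.16, SE 0.30, adjusted p = 0.00729). Cml2 (3.40, SE 0.31) went from 5.86, 4.32 and 6.11 CPM to 102, 28.8 and 81.4 CPM, and Ubtfl1 (3.45, SE 0.45) from 1.93, 1.20 and 2.15 to 36.2, 8.28 and 27.9 CPM. Of 25 genes encoding repressors and activators of the two-cell-like state 0 rose and 1 fell (4%), where 4.22% of all tested genes were called. Their median was -0.09 (0.03 when scaled by total counts). The one that fell was Lin28a, described with the pluripotency genes, and its call was lost without clone 10 replicate 3. Dppa2, which encodes an activator of Dux, stood at 228, 192 and 97.5 CPM against 322, 294 and 282 CPM (0.76, SE 0.22, adjusted p = 0.0933). Its gates did not overlap in CPM, and it was called without pair 1 (1.04, adjusted p = 0.0178).

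Esr1, which encodes estrogen receptor alpha, differed from these genes in its pattern over replicates. It stood at 1.54, 6.25 and 7.92 CPM in GFP-negative cells and at an even 76.5, 64.1 and 73.6 CPM in GFP-positive cells (chromosome 10, 4611593 to 5005614, log2 rise 3.75, SE 0.39, 13.5-fold, adjusted p = 0.00212). The gates did not overlap, and replicate 2 was not set apart. Without pair 1 the rise was 3.26 (adjusted p = 0.000674). Tamoxifen-inducible Cre is commonly fused to a domain of the estrogen receptor. If that was so here, reads of the transgene and of Esr1 cannot be told apart, and the labels do not say.

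Other large rises lay outside the two-cell-like lists. Ddit4l, an inhibitor of mTOR signalling, went from 42.1, 29.9 and 33.7 CPM to 194, 95.7 and 139 CPM (1.86, SE 0.17). Traf1, an adaptor of tumor necrosis factor receptors, went from 3.32, 1.01 and 3.06 CPM to 19.9, 5.36 and 16.6 CPM (2.35, SE 0.20). Dhtkd1, a mitochondrial dehydrogenase gene, went from 53.9, 65.9 and 83.1 CPM to 560, 199 and 472 CPM (2.37, SE 0.37). For each of these the lowest GFP-positive library was above the highest GFP-negative library. Genes at low levels rose as well, among them the major histocompatibility gene H2-M10.4 (3.44), the apolipoprotein L gene Apol7b (3.47), the lectin gene Clec10a (3.41), the muscarinic receptor gene Chrm3 (3.50), the netrin receptor gene Dcc (3.42) and D13Ertd608e (3.50). Their GFP-negative levels lay between 0.191 and 8.87 CPM and their GFP-positive levels between 2.68 and 173 CPM.

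Abundant genes rose by smaller factors. Mcl1, an antiapoptotic BCL2 family gene, went from 612, 728 and 708 CPM to 1091, 951 and 1200 CPM (0.54, SE 0.12, adjusted p = 0.049). Fem1b, a subunit that selects substrates for ubiquitin ligation, went from 409, 598 and 862 CPM to 943, 957 and 1348 CPM (0.72, SE 0.13). Both gates were separate for these, whereas Igfbp2, an insulin-like growth factor binding protein gene, overlapped at 608, 282 and 635 against 942, 477 and 1331 CPM (0.70, SE 0.16). The splicing factor gene Rbm25 rose by 0.79 (SE 0.17). Mcl1, Igfbp2 and Rbm25 each stayed called in 1 of the 6 removals of a pair and Fem1b in 3. Of the 60 named genes that rose, 25 were called in all 6 removals, and all 60 kept their sign.

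Part of the rises lay in runs along chromosomes. Joining called genes whose starts lay within 500 kb of each other gave 11 runs of at least 4 genes, which together held 103 of the 530 genes (19.4%). Their median log2 rise was 3.52, against 1.59 for the 427 outside the runs. On chromosome 7 all 5 tested genes of the Zscan4 run (10900740 to 11402741) rose, and their summed level went from 76.3, 50.2 and 39.0 CPM to 1986, 479 and 1257 CPM. On chromosome 12 all 15 tested genes between 87514316 and 88321481 rose, each a predicted or clone-named gene, from a summed 133, 80.8 and 55.7 CPM to 1870, 536 and 1035 CPM. The run around Tcstv1 and Tcstv3 on chromosome 13 (119606650 to 120318076) held 13 genes that rose among 17 tested, and the Pramef run on chromosome 4 (143394428 to 144364419) 11 of 12. A run of 11 of 11 predicted or clone-named genes lay on chromosome 5 (94302519 to 95282970), and one of 13 of 18 around the Tdpoz genes on chromosome 3 (93651571 to 94658872). Runs were built from rises alone and each span ends at rises, so high shares within them follow in part from the definition. No tested gene within a span fell, where 0.731% of all tested genes did. No like count of runs was made for all tested genes. Most run members share a family with a neighbour, so they are not independent, but the chromosome 3 run also held Them4, Tdrkh and Tuft1, which are no copies of Tdpoz.

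Replication-dependent histone genes, which supply histones in S phase, were the other large group that rose. Of 51 tested 23 rose (45.1%) and 0 fell, where 3.49% and 0.731% of all tested genes did. The list had a median of 1.73. All 51 estimates were above 0, as were 7439 of the 15179 for all tested genes. Hist1h4i, a histone H4 gene (chromosome 13, 22040816 to 22041352), went from 24.8, 17.1 and 19.5 CPM to 204, 70.0 and 246 CPM (2.79, SE 0.30, adjusted p = 0.00216). Hist1h1c, a linker histone gene, went from 15.7, 7.79 and 14.5 CPM to 31.0, 16.6 and 38.5 CPM (1.05, SE 0.20). In CPM both sets of libraries were separate. Most other members stood lower, such as Hist1h2ai (1.08, 0.613 and 0.477 CPM against 6.38, 1.81 and 4.88 CPM, 2.33, SE 0.39) and Hist1h2bg (1.62, 0.613 and 0.955 against 5.96, 2.38 and 4.44 CPM, 1.89, SE 0.31).

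The histone count depended on single pairs. It was 27, 9 and 1 without clone 10 replicates 1, 2 and 3, 14, 12 and 10 without clone 4 replicates 1, 2 and 3, and 7 when only clone 10 libraries were fitted. The summed level of the list was 201, 61.5 and 90.7 CPM in GFP-negative cells and 559, 175 and 572 CPM in GFP-positive cells, and GFP-negative replicate 1 was above GFP-positive replicate 2. The gates overlapped for 9 of the 23. Of all tested genes 14.5% did not overlap, and of the 530 that rose 433 did not. The histone runs on chromosome 13 held 10 rises among 20 tested genes (21716412 to 22043676) and 12 among 26 (23531044 to 23762386). On that chromosome 8.25% of tested genes rose, and 5.09% did without the listed histones. These messages mostly lack a poly(A) tail, so their counts also depend on the RNA selected in library making, whose part was not tested.

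Targets of p53, the factor that answers DNA damage, rose in part. Of 34 tested 7 rose (20.6%, against 3.49% of all tested genes) and 0 fell, with a median of 0.35. Btg2, an antiproliferative gene, went from 63.5, 54.9 and 78.5 CPM to 167, 127 and 170 CPM (1.12, SE 0.11, adjusted p = 0.00211). Plk2, a polo-like kinase gene, went from 49.7, 124 and 188 CPM to 310, 322 and 409 CPM (1.58, SE 0.27). Both were called in all 6 removals of a pair. The proapoptotic Pmaip1 went from 191, 146 and 103 CPM to 388, 313 and 248 CPM (1.01, SE 0.16). Mdm2, whose product degrades p53, went from 184, 267 and 314 CPM to 520, 503 and 502 CPM (0.91, SE 0.16). The gates were separate for all 4. Trp53inp1 (1.06), Perp (0.80) and Ckap2 (0.62) completed the list of rises.

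Classical p53 targets that were not called included Cdkn1a, the cyclin kinase inhibitor gene, at 122, 114 and 231 CPM against 175, 173 and 227 CPM (0.25, SE 0.14), Bax (-0.43, SE 0.23) and Bbc3 (0.11, SE 0.17). The count of 7 was 9, 3 and 2 without clone 10 replicates 1, 2 and 3 and 4 without clone 4 replicate 3. The BCL2 family of survival and death genes had a median of -0.29. Among its 16 tested members Pmaip1 and Mcl1 rose (12.5%, against 3.49% of all tested genes). That count was 0 without clone 10 replicate 2 or 3 and 1 without any single clone 4 pair. Among 36 genes of G2/M and mitosis, Hmmr (0.92, SE 0.15) and Ckap2 rose (5.56%, against 3.49% of all tested genes) and 0 fell, with a median of 0.26. Their count was 0 without clone 10 replicate 3 and 1 without clone 4 replicate 3. Of 33 genes of G1/S and DNA replication 0 were called by edgeR's test over all genes, where 4.22% of all tested genes were. With DESeq2 4 of them fell, with limma-voom 2 and with no filter on low counts 1. The list had a median of -0.26 and 30 of 33 estimates below 0, while 7439 of the 15179 for all tested genes were above 0.

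Among 46 tested genes of sphingolipid metabolism 2 rose (4.35%, close to the 3.49% of all genes) and 0 fell, with a median of 0.18. The rises numbered 1, 3 and 0 without clone 10 replicates 1, 2 and 3, and 1 without clone 4 replicate 3. Sgms1, which encodes a sphingomyelin synthase that turns ceramide into sphingomyelin, went from 25.4, 36.2 and 46.3 CPM to 216, 72.3 and 170 CPM (chromosome 19, 32122727 to 32389714, log2 1.86, SE 0.30, 3.62-fold, adjusted p = 0.0133). The gates were separate, and the rise was 1.41 without pair 1 (adjusted p = 0.00766). Sptssb, a small subunit of the serine palmitoyltransferase that starts the pathway, was under the level of 3 counts in each GFP-negative library (0, 0.0613 and 0.0477 CPM) and stood at 1.73, 0.572 and 1.28 CPM in GFP-positive cells. Its call was lost without pair 1 (adjusted p = 0.0535), and it was called in 2 of the 6 removals.

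The enzymes next to the sphingosine kinases were not called. Sgpl1, the sphingosine 1-phosphate lyase gene, stood at 98.3, 163 and 203 CPM against 236, 227 and 253 CPM without overlap (0.57, SE 0.15, adjusted p = 0.073). The phosphatase gene Sgpp1 (0.30, SE 0.17) and the ceramidase genes Asah1 (0.30, SE 0.17) and Acer2 (0.95, SE 0.26, adjusted p = 0.078) had estimates above 0. Of 5 sphingosine 1-phosphate receptor genes 0 were called. S1pr2 was the most abundant, at 65.1, 52.6 and 43.5 CPM against 51.9, 48.0 and 36.4 CPM (-0.36, SE 0.14, adjusted p = 0.154).

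The largest fall among the named genes was that of Pla2g1b, a secreted phospholipase A2 gene, from 131, 68.7 and 56.6 CPM to 31.2, 23.8 and 24.2 CPM (chromosome 5, 115466262 to 115474722, log2 -1.73, SE 0.24, 3.31-fold, adjusted p = 0.00737). It was the only one of 36 named falls called in all 6 removals of a pair, and all 36 kept their sign. B4galnt4, a glycosyltransferase gene, went from 82.6, 67.2 and 68.9 CPM to 43.2, 41.2 and 38.5 CPM (-0.94, SE 0.14). The calpain gene Capn5 (-0.93), the ephrin receptor gene Ephb4 (-0.84) and the metalloproteinase inhibitor gene Timp1 (-0.76) also fell with separate gates. Plac8 (-1.003), the aminotransferase-like gene Accsl (-1.36), the riboflavin transporter gene Slc52a3 (-1.09) and Pdzd4 (-1.06) fell within each pair although their gates overlapped. These 8 genes were each called in 5 of the 6 removals and lost without clone 10 replicate 3.

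Pluripotency genes were called in both directions. Of 28 genes of naive pluripotency 1 rose (3.57%) and 2 fell (7.14%), where 3.49% and 0.731% of all tested genes did. Their median was -0.36. Lin28a, which encodes an RNA-binding protein that blocks let-7 maturation, went from 527, 731 and 419 CPM to 223, 463 and 230 CPM (-1.04, SE 0.17, adjusted p = 0.0143). Its gates overlapped because replicate 2 was high in both. Nr0b1, an orphan nuclear receptor gene, went from 130, 177 and 145 CPM to 71.8, 119 and 75.7 CPM (-0.90, SE 0.18). Fbxo15, an F-box gene used as a marker of pluripotent cells, rose from 367, 244 and 316 CPM to 1033, 520 and 1169 CPM (1.37, SE 0.19, adjusted p = 0.00725). None of the 3 was called without clone 10 replicate 3. Without pair 1 the falls numbered 4. Nanog stood at 614, 980 and 1021 CPM against 603, 1002 and 875 CPM (-0.19, SE 0.16), and Pou5f1, given above, had an estimate of -0.61 (SE 0.21, adjusted p = 0.129) that was -0.29 without pair 1.

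Among the formative and primed genes 2 of 18 rose (11.1%) and 1 fell (5.56%), where 3.49% and 0.731% of all tested genes did. Their median was -0.23. Sox3 went from 17.2, 10.1 and 11.8 CPM to 37.4, 20.2 and 48.2 CPM (1.26, SE 0.24), and Nodal, a TGF-beta family ligand gene, from 118, 162 and 138 CPM to 214, 303 and 228 CPM (0.71, SE 0.12). Foxd3, a forkhead factor gene, fell from 39.2, 51.0 and 52.1 CPM to 23.8, 33.9 and 23.9 CPM (-0.93, SE 0.16). The gates were separate for all 3. None stayed called without clone 10 replicate 3, Sox3 and Nodal were also lost without clone 4 replicate 3, and Nodal without clone 10 replicate 2. Further abundant genes that fell were the ribosome biogenesis factor gene Tcof1 (-0.66), the cyclin gene Ccnd3 (-0.68), the cold shock domain gene Ybx3 (-0.54), the hexokinase gene Hk2 (-0.70), the thyrotropin-releasing hormone gene Trh (-0.97), L1td1 (-0.71), the zinc finger gene Maz (-0.67), the galectin gene Lgals1 (-0.68) and the RNA helicase gene Mov10 (-0.79). Trh spanned 1083, 815 and 203 CPM in GFP-negative cells and 479, 528 and 120 CPM in GFP-positive cells, a wider spread between replicates than between gates.

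**Figure D2:**
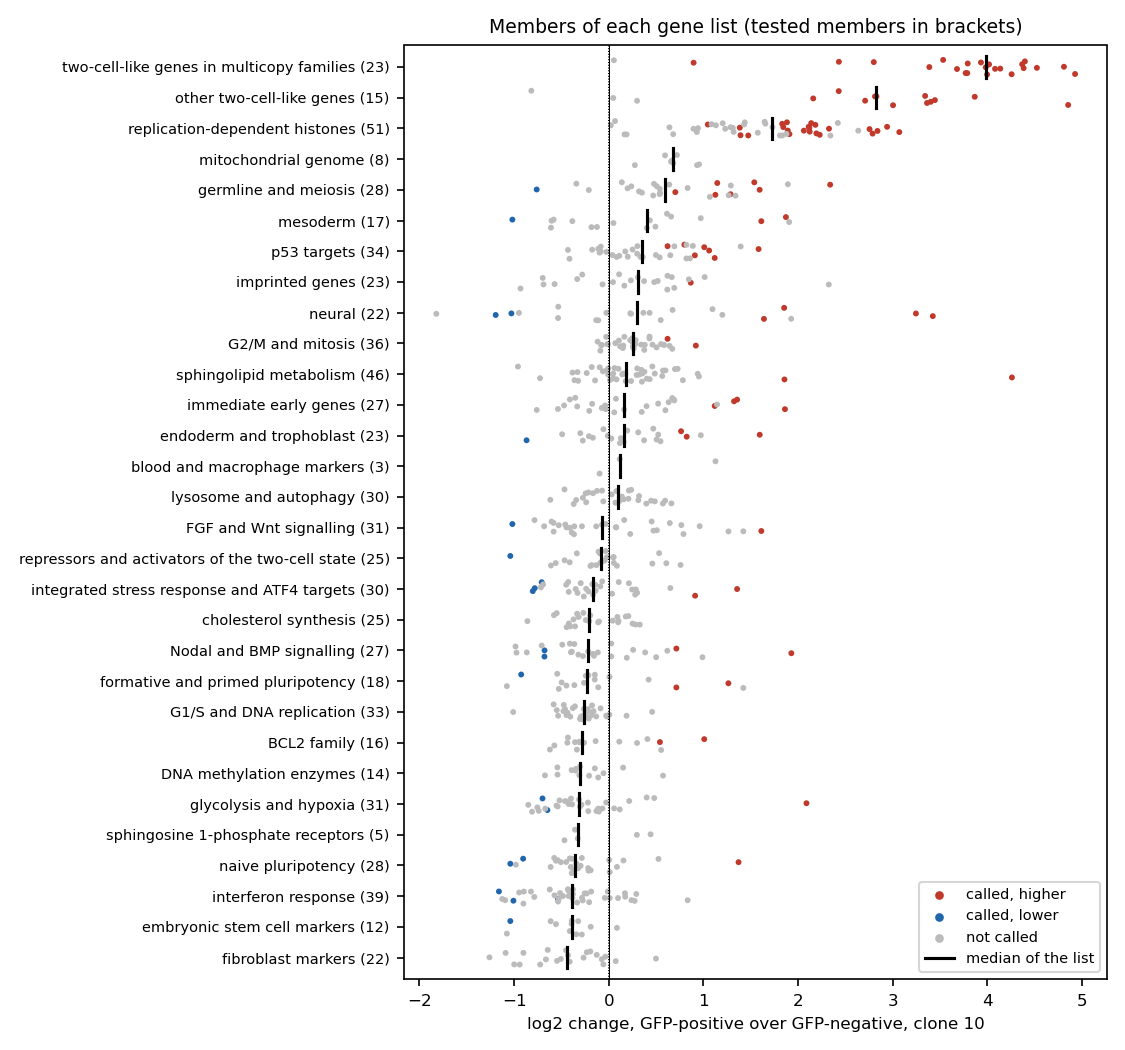
Log2 change of every tested member of the 30 gene lists (horizontal axis), with one row per list, called members in colour, others in grey and the median of each list as a bar. The 2 two-cell-like lists and the histones lie to the right, with medians of 3.98, 2.83 and 1.73, and most other medians lie within 0.5 of 0.

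Lineage genes changed singly and in both directions. Of 22 neural genes 4 rose (18.2%) and 2 fell (9.09%), where 3.49% and 0.731% of all tested genes did. Their median was 0.30. Lmx1a, a homeobox gene, went from 6.25, 2.33 and 2.82 CPM to 72.6, 15.9 and 39.3 CPM (3.25, SE 0.37), and Dll1, a Notch ligand gene, from 2.78, 8.89 and 5.87 to 22.6, 19.06 and 23.9 CPM (1.85, SE 0.27). Olig2, an oligodendrocyte and motor neuron factor gene, fell from 19.0, 24.7 and 25.7 CPM to 9.42, 14.7 and 9.07 CPM (-1.19, SE 0.24), with its neighbour Olig1 (-1.03, SE 0.18). The 2 falls were lost without clone 10 replicate 3 and without clone 4 replicate 3. Of 17 mesoderm genes 2 rose (11.8%) and 1 fell (5.88%). Snai1, a repressor of E-cadherin, rose from 9.64, 6.41 and 12.6 CPM to 58.8, 16.0 and 52.5 CPM (1.87, SE 0.21). Wnt3 rose as well (1.61, SE 0.30), and Fgf17 fell (-1.02, SE 0.20). Without clone 10 replicate 2 or 3 the rises numbered 1, and without clone 10 or clone 4 replicate 3 the fall was lost. Of 23 endoderm and trophoblast genes 3 rose (13.0%) and 1 fell (4.35%). The keratin genes Krt8 (0.76) and Krt18 (0.82) and Sox17 (1.59) rose, and the laminin gene Lama1 fell (-0.87). The 3 rises were 0 without clone 10 replicate 3 and 1 on leaving out any other pair. The fall of Lama1 was lost without clone 10 replicate 3 and with total-count scaling.

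Of 28 tested germline genes 7 rose and 1 fell, with a median of 0.59, where 3.49% and 0.731% of all tested genes did. Dazl, which encodes a translational regulator of germ cells, went from 27.0, 22.4 and 26.5 CPM to 119, 38.3 and 66.3 CPM (1.29, SE 0.21), and Taf7l, a TFIID subunit gene of germ cells, from 23.1, 10.4 and 15.2 CPM to 60.6, 20.8 and 38.4 CPM (1.13, SE 0.14). Slc25a31 (1.59, SE 0.23), an ADP/ATP carrier gene of the testis, and the ribosomal protein gene copy Rpl10l (1.15, SE 0.17) rose too. Sycp1, Tktl2 and Tex19.1 were the other rises, and the meiotic cohesin gene Smc1b fell (-0.76). Without clone 10 replicate 3 the 7 rises became 0, and over the other removals they numbered 5 to 7. The fall of Smc1b was called in none of the 6 removals and not with total-count scaling.

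Signalling genes were called in both directions, and over all tested genes 3.49% rose and 0.731% fell. Of 27 Nodal and BMP pathway genes Nodal and Id2 rose (7.41%) and the inhibitor genes Smad7 (-0.68) and Lefty2 (-0.68) fell (7.41%). The 2 rises were 1 without clone 10 replicates 2 or 3 or clone 4 replicate 3. Id2, an inhibitor of helix-loop-helix factors, went from 3.32, 10.1 and 18.4 CPM to 24.3, 41.5 and 48.3 CPM (1.93, SE 0.29) and was called in all 6 removals. The 2 falls became 1 with total-count scaling, 4 with RLE scaling, 4 without clone 10 replicate 1, 1 without clone 4 replicates 1 or 2, and 0 without clone 10 or clone 4 replicate 3. Of 31 FGF and Wnt pathway genes Wnt3 rose and Fgf17 fell (3.23% each). Their list had a median of -0.07 (above 0 when scaled by total counts). Without clone 10 replicate 2 there were 0 rises and 2 falls, without clone 10 replicate 3 there were 0 of either, and without clone 4 replicate 3 there were 0 falls. Immediate early genes rose in 4 of 27 cases (14.8%), Btg2, Dusp2 (1.86, SE 0.34), Fos (1.32, SE 0.27) and Atf3 (1.36, SE 0.29), and 0 fell. These 4 were 1 without clone 10 replicate 3 and 2 without clone 4 replicates 2 or 3.

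Stress and metabolic lists were mixed. Of 30 targets of the integrated stress response 2 rose (6.67%) and 3 fell (10%), where 3.49% and 0.731% of all tested genes did. Atf3 and the phosphatase subunit gene Ppp1r15a (0.91) rose. The metabolic enzyme genes Pck2 (-0.80) and Gpt2 (-0.71) and the glutathione-degrading Chac1 (-0.78) fell. Of 31 genes of glycolysis and hypoxia P4ha2, a collagen prolyl hydroxylase gene, rose from 40.0, 27.0 and 55.3 CPM to 267, 86.8 and 255 CPM (2.09, SE 0.21) and was called in all 6 removals. In that list Hk2 and the pyruvate dehydrogenase kinase gene Pdk1 (-0.65) fell (6.45%), and the 1 rise made 3.23%. With total-count scaling 1 of the 3 falls of the stress list was called. The falls of these 2 lists were lost without clone 10 or clone 4 replicate 3, and those of the second also numbered 1 and 0 without clone 10 replicates 1 and 2 and 1 without clone 4 replicate 2. The 2 rises of the stress list became 3, 1 and 0 on leaving out replicates 1, 2 and 3 of clone 10, and 2, 1 and 0 on leaving out those of clone 4. Of 23 imprinted genes 1 rose (4.35%), the cyclin kinase inhibitor gene Cdkn1c (0.87, SE 0.20). Its call held in 1 of the 6 removals and not with total-count scaling. In the lists of cholesterol synthesis (25 tested), lysosome and autophagy (30) and DNA methylation enzymes (14) edgeR called 0 genes, and without clone 10 replicate 1 it called 1 fall in the last.

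Genes of the interferon response fell in 3 of 39 cases (7.69%, against 0.731% of all tested genes) and rose in 0. Their median was -0.38. With total-count scaling 0 fell, and with DESeq2 11 did. The immunoproteasome subunit genes Psmb10 (33.1, 18.7 and 21.3 against 11.5, 12.2 and 10.6 CPM, -1.16, SE 0.26) and Psmb8 (4.01, 3.19 and 17.9 against 2.83, 1.57 and 8.38 CPM, -1.01, SE 0.21) and the RNA sensor gene Ddx58 (-0.54) were the members. The falls became 9, 1 and 0 on removing replicates 1, 2 and 3 of clone 10, and 1, 1 and 0 on removing those of clone 4. Pyhin1, an interferon-inducible gene, fell from 0.540, 3.59 and 29.2 CPM to 0.471, 1.11 and 7.35 CPM (-1.68, SE 0.34), with levels that differed more between replicates than between gates. The T cell kinase gene Lck fell from 51.5, 39.4 and 29.4 to 19.098, 23.7 and 18.4 CPM (-1.06, SE 0.22), and Hpdl, a dioxygenase-like gene, by 1.24 (SE 0.23).

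Fibroblast markers varied between libraries as well as gates. Of 22 tested 0 were called, where 4.22% of all tested genes were, and the list had a median of -0.44. Their summed level was 1191, 2340 and 4549 CPM in GFP-negative cells and 1839, 1948 and 3015 CPM in GFP-positive cells, and the pair medians were 0.71, -0.89 and -0.81. The GFP-negative library of replicate 3 was the highest and that of replicate 1 the lowest. Without pair 1 the median was -0.91 and 10 of the markers fell, where 1.12% of all tested genes did. Among the 10 were Col1a1 (-0.76), Postn (-1.26) and S100a4 (-1.47). Col3a1, a defining collagen gene of fibroblasts, stood at 0.848, 9.66 and 32.7 CPM against 4.40, 3.61 and 18.3 CPM. The part of such cells in the falls of other genes was not tested. The mitochondrial genes differed mainly in pair 1: their pair medians were 1.91, 0.07 and 0.18, and 0 of 8 were called.

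**Figure D3:**
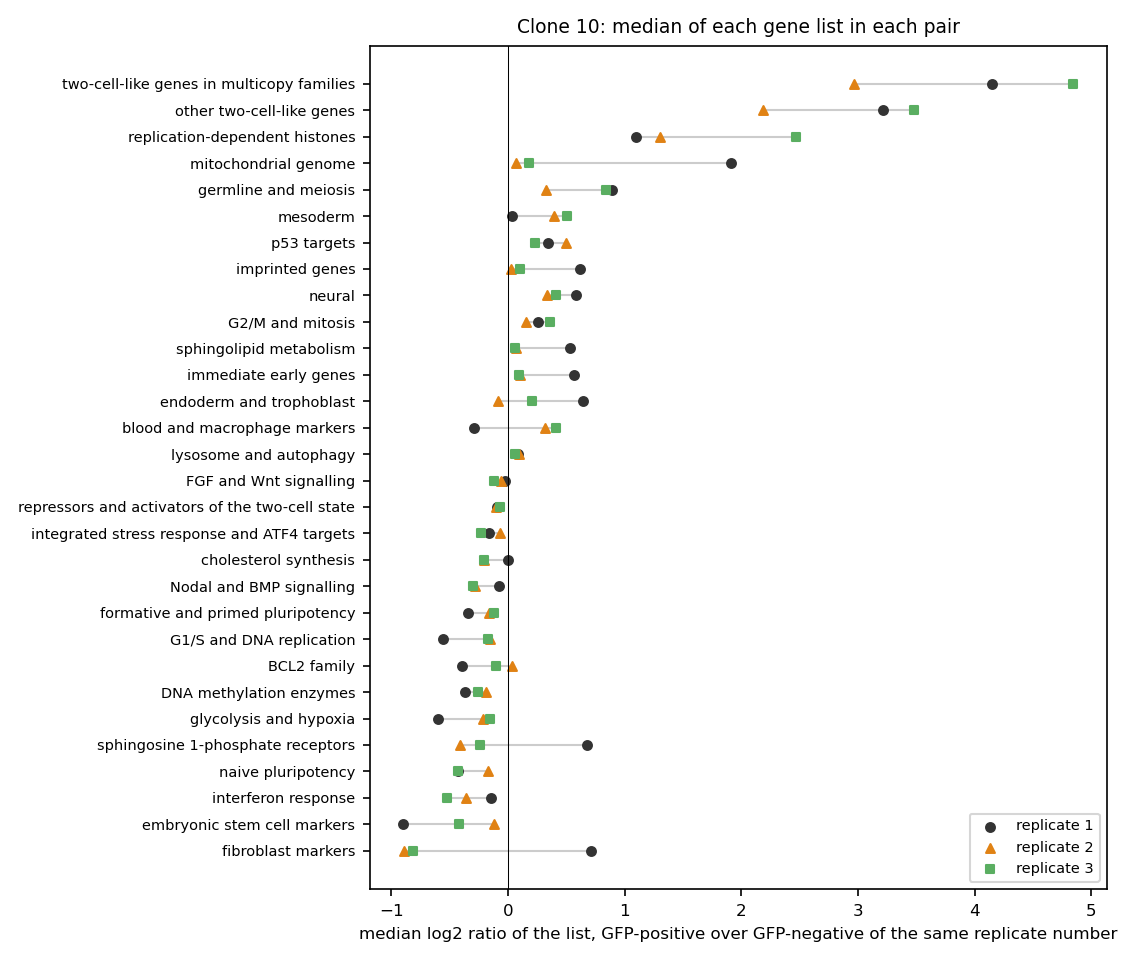
Median log2 ratio of each gene list in each of the 3 clone 10 pairs (horizontal axis), GFP-positive over GFP-negative, with one row per list and one symbol per replicate number. The two-cell-like lists and the histones lie above 0 in all 3 pairs, while fibroblast markers lie above 0 in replicate 1 (0.71) and below it in replicates 2 and 3 (-0.89 and -0.81).

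The same gate comparison in clone 4 shares no library with that of clone 10. Of the 530 genes that rose in clone 10, 462 (87.2%) had an estimate above 0 in clone 4, with a median of 0.47, and of the 111 that fell, 93 (83.8%) had one below 0, with a median of -0.18. Over all tested genes 69.3% had the same sign in both clones. In clone 4 itself 18 genes were called (0.119%), and 14 of them were called in the same direction in clone 10, 11 higher and 3 lower. The two-cell-like genes of multicopy families had a median of 2.93 in clone 4, against 3.98 in clone 10, although edgeR called only 3 of 23 there, and 2 of 15 of the other two-cell-like genes. Levels were lower in clone 4: Zscan4d stood at a mean of 1.77 CPM in GFP-negative cells and 24.7 CPM in GFP-positive cells there, against 21.3 and 430 CPM in clone 10.

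The difference of the 2 responses was tested for each gene, and edgeR called 0 of 15179 (0%), with 1167 at an unadjusted p under 0.05. DESeq2 called 62 and limma-voom 0, and without clone 10 replicate 1 edgeR called 1. The smallest adjusted p was 0.325, for Traf1, with log2 changes of 2.35 in clone 10 and 0.18 in clone 4 (difference 2.18, SE 0.29, 95% confidence interval 1.53 to 2.83). Hist1h1c stood at 1.05 and -0.78 (adjusted p = 0.352), Snai1 at 1.87 and 0.07 (0.352), Btg2 at 1.12 and 0.19 (0.352) and Hist1h4i at 2.79 and 0.41 (0.418), each adjusted p being that of the difference. The histone list had a clone 4 median of -0.04, and 28 of its 51 members had an unadjusted p under 0.05 for the difference, against 1167 of all 15179 genes. Zscan4c (4.00 and 3.24) and Esr1 (3.75 and 2.96) had differences with adjusted p = 0.719 and 0.716, which does not show that the clones responded alike.

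**Figure D4:**
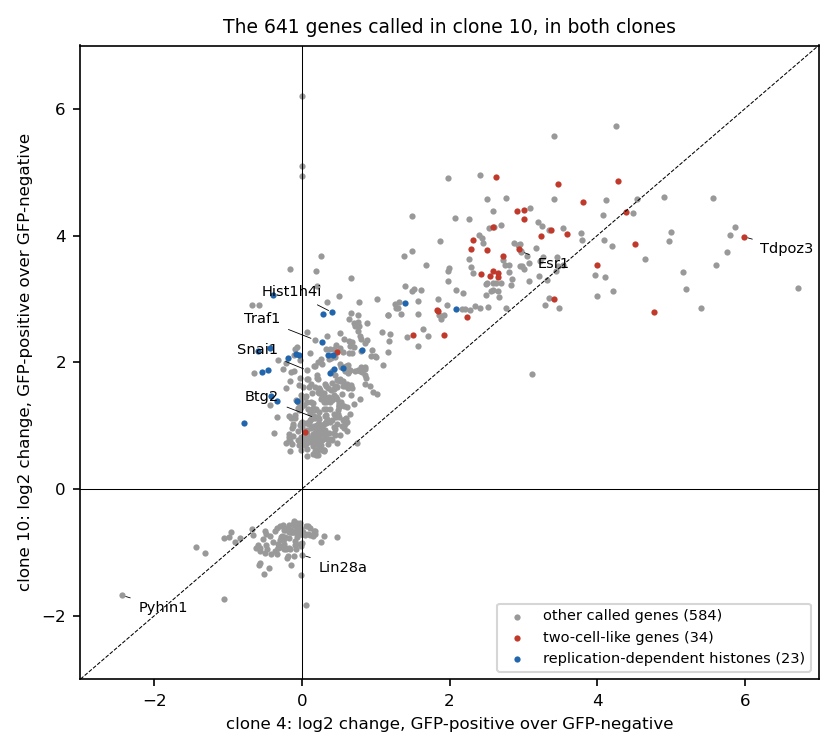
Log2 change in clone 10 (vertical axis) against that in clone 4 (horizontal axis) of the 641 genes called in clone 10, with the dashed line marking equal changes, 34 called two-cell-like genes in red, 23 called histones in blue and the other 584 in grey. All 34 red points lie above 0 in both clones, and the whole histone list has a median of -0.04 in clone 4.

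In the authors' deposited table for clone 10, which holds their own DESeq2 comparison, 418 genes had an adjusted p under 0.05. Of these, 327 that the authors' deposited table gives as higher rose here and 8 that it gives as lower fell here, 67 given as higher and 1 given as lower were tested but not called, and 15 were not tested. Their log2 values for Zscan4c (2.48), Esr1 (2.78), Btg2 (1.00) and Pla2g1b (-1.50) had the sign found here, and were smaller in size. The 2 sets of values come from different fits, so the smaller size is no measure of a smaller effect. Lin28a, which fell here, stood at -0.80 in the authors' deposited table with an adjusted p of 0.344.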

How the data were processed

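RNA sequencing of 12 libraries was analysed, with 6 from clone 10. The authors deposited raw read counts for each gene. Per the submitters' processing notes, the tools were STAR 2.3.0e, HTSeq 0.6.0, DESeq2 and DESeq, with build mm10. Neither annotation release nor strand setting is given in the sources, so overlapping genes cannot be told apart. The authors' deposited table for clone 10 gives log2 fold changes and adjusted p-values, per the file headers. Symbols and coordinates come from that table.

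The test was the robust quasi-likelihood F test of edgeR 4.0.16 under R 4.3.3 (TMM scaling, a filter worth 10 counts in 3 libraries and 15 in total), which left 15179 of 22753 genes. All 12 libraries entered 1 fit with the pair as a block and a gate effect per clone, leaving 4 residual degrees of freedom. Benjamini-Hochberg adjustment ran over the whole table, with calls made below 0.05. Adjusted p-values come from this edgeR test unless another is named. Log2 changes use effective library sizes. Whether gates overlapped was judged on CPM scaled by total counts, without the TMM factors. Those factors were 0.830 for GFP-negative replicate 1 and 0.932 to 1.05 for the other clone 10 libraries. Gates that were separate in CPM may therefore overlap on the scale of the test. Log2 CPM adds a prior count of 1.

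The replicate numbers of the labels were set as pairs beforehand, with earlier results of these data on that pairing known. In clone 10, same-numbered libraries deviated together from their group means (correlations of 0.525, 0.638 and 0.658, against -0.440 to -0.211 for different numbers). Deviations from a group mean cancel out, so negative values between different numbers follow in part from positive ones within numbers. The clone 10 calls used these same libraries. The members, the 30 gene lists and the tests were chosen with earlier results of these data known. Lists were not tested as sets. Named genes were, in each direction, the 10 smallest p, the 10 largest differences of mean CPM and the 10 largest log2 changes (rises outside the multicopy list) among called genes whose mean log2 CPM was 1 or more and whose 3 pairs had 1 sign, predicted names passed over, with Sphk1, Sphk2 and up to 4 called members of each list. Other genes in the text were chosen after their values were seen. Alternatives were no block, other scalings and filters, DESeq2 1.42.0, limma-voom (limma 3.58.1), clone 10 alone and leaving out each pair. The scripts were tested on simulated data. RefSeq windows matched 330 of the 530 genes that rose and 85 of the 111 that fell.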

Additional observations from a re-analysis of the deposited data

Results flagged for a closer look

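Of 98 named genes, 4 moved one way in all 3 pairs of clone 10 and the opposite way in all 3 pairs of clone 4. All named genes but Sphk1 and Sphk2 were called genes, which had the same sign in the 3 clone 10 pairs. No like count was made over all tested genes, so the 4 are not shown to be more than elsewhere. The immediate early gene Fos rose in clone 10 (log2 1.32) and had an estimate of -0.43 in clone 4, a difference of 1.76 (SE 0.38, adjusted p of the difference = 0.528 by edgeR). The imprinted cyclin kinase inhibitor gene Cdkn1c stood at 0.87 and -0.17, a difference of 1.03 (SE 0.27). The ribosome biogenesis factor gene Tcof1 stood at -0.66 and 0.17, a difference of -0.83 (SE 0.18), and L1td1, an RNA-binding protein gene derived from a transposon, at -0.71 and 0.18, a difference of -0.88 (SE 0.22). The adjusted p of the difference was 0.528 for each of the 4, so none passed the test across all genes.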

How the results depend on the processing

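The count of rises (530) was 979 with DESeq2, 622 with limma-voom, 536 with RLE scaling, 504 with total-count scaling, 639 with no filter on low counts, 498 with the stricter filter and 263 with clone 10 alone. The count of falls (111) was 594 with DESeq2, 193 with limma-voom, 131, 48, 161 and 96 in the same order of scalings and filters, and 3 with clone 10 alone. The share of rises among the calls was 82.7%, and 62.2% with DESeq2, 91.3% with total counts and 98.9% with clone 10 alone. Without the replicate block both counts were 0, with 1131 genes at an unadjusted p under 0.05, so the calls rest on the pairing. Leaving out 1 pair gave 131 to 487 rises and 1 to 172 falls. The difference between the clones gave 0 calls except 62 with DESeq2 and 0 to 1 on leaving out 1 pair, the 1 being without clone 10 replicate 1. Total-count scaling moved the median of all genes to 0.11 from -0.01, so small rises and falls are relative to the scaling. Sphk1 stayed below 0 and not called throughout (-0.45 to -0.18, and -0.42 without the replicate block). Sphk2 turned to -0.0021 with limma-voom, and leaving out 1 pair gave -0.13 (clone 10 replicate 1) to 0.18. Of the 96 other named genes none changed sign; 96 lost the call without the replicate block, 56 with clone 10 alone, 13 with total counts, 3 with the stricter filter, 1 with RLE, and 13, 20 and 70 on removing clone 10 replicates 1, 2 and 3, or 14, 22 and 38 on removing those of clone 4. With clone 10 alone 0 members of any list fell, and the rises of histones, p53 targets and germline genes numbered 7, 3 and 2. With DESeq2 they numbered 35, 14 and 12. The causes were not tested. Libraries held 12968916 to 34258395 counts, and 3836 genes had 0 counts in all 6 clone 10 libraries and could not be compared.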
